A study of Mus musculus with 8 samples.

Results

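Ribosome footprints, the short RNA pieces that a ribosome shields from nuclease while it translates, were compared between mouse embryonic stem cells with Mettl6 knocked out (KO) and wild type (WT) cells. The members are all genes of the deposited table except Rn45s, the ribosomal RNA precursor, whose 4 footprint libraries average 1 CPM or more. CPM scales a gene's reads to 1000000 reads of its library, here after dropping Rn45s. This kept 12385 of 23818 gene symbols, while 8561 symbols were listed at 0 in all 4 libraries. The rule used the mean over both genotypes and no difference between them. Just inside it stood Zfp493, Fsd2 and Gpr155 at a mean of 1.003 CPM, and just outside it Gpha2, Irs3 and Cspg4 at 0.999 CPM.

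The KO cells are a single clone, G6, of the J1 line (2 footprint libraries), and the WT cells are J1 (2 footprint libraries). Both were kept as stem cells in 2i medium with LIF and both received cycloheximide, which halts elongating ribosomes, for 10 min before lysis. Extracts were digested with RNases A and T1, 80S monosomes were taken from a sucrose gradient, and RNA of 26 to 32 nt was cut from a gel. Total RNA of both genotypes was also sequenced, in 2 libraries each, and serves below as the second readout. With 1 clone, the genotype and the clone's own history cannot be told apart. The libraries are labelled biological replicates without further detail. The p-values rest on the spread between these libraries, in part shared across genes, and measure no spread between clones.

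METTL6 is a methyltransferase that places 3-methylcytidine (m3C) in the anticodon loop of serine tRNAs, close to the bases that read the serine codons. METTL2 places the same mark on other cytosolic tRNAs and METTL8 on mitochondrial ones, and SARS, the seryl-tRNA synthetase, charges the tRNAs that METTL6 modifies. In ribosome profiling, a gene's footprints depend on how much of its mRNA is present, how often ribosomes start on it and how fast they move along it, so a footprint level alone does not separate these.

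Depth was estimated from the smallest step between values, which puts 1504418 and 1054178 reads outside Rn45s in the KO libraries and 1589244 and 1247131 reads in the WT libraries. Rn45s took 38.3% and 42.6% of the deposited values in KO and 46.3% and 41.3% in WT. A single read was worth 0.665 and 0.949 CPM in KO and 0.629 and 0.802 CPM in WT, so the lowest genes rest on a few reads in all, and Fsd2 and Gpr155, just inside the minimum, had no footprint in either KO library and 0 and 4.01 CPM in WT. Across genes, log2 values correlated with Pearson's r of 0.963 between the KO libraries, 0.966 between the WT libraries and 0.919 to 0.934 between KO and WT libraries. The 10 stem cell markers were all present, and their summed level was 4939 and 4764 CPM in KO and 6664 and 6071 CPM in WT. Feeder and fibroblast markers (Col1a1, Col1a2, Col3a1, Thy1, Postn) summed to 4.66 and 6.65 CPM in KO and 11.97 and 12.04 CPM in WT, with 2 of 5 at 0 in all 4 libraries. Primitive endoderm markers (Gata6, Gata4, Sox17, Sox7, Pdgfra, Dab2) summed to 22.0 and 24.1 CPM in KO and 24.5 and 20.8 CPM in WT. Some genes described below overlap another gene in the annotation (Hspa5, Pdia3, Nid2, Slc7a3, Grb7, Igf2r and Srrm2 among them), and gene totals cannot separate their reads unless the counting used strand, which is not stated.

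The targeted gene had low footprint levels in both genotypes. Mettl6 had 8.65 and 7.599 CPM in KO cells, against 6.299 and 11.2 CPM in WT cells. The values overlap, and the log2 change was -0.05 ± 0.426 (SE, adjusted p = 0.949). A single read was worth 0.629 to 0.949 CPM in these libraries, so each value rests on a small number of reads. In total RNA, Mettl6 had 2.45 and 0 CPM in KO, against 26.3 and 28.99 CPM in WT, a log2 change of -3.95 (adjusted p = 0.000146). The difference between the footprint and total RNA changes of Mettl6 was called in the interaction fit given below. The position of these footprints along the gene is not given by a table of gene totals. Mettl6 also overlaps Gm35907 in the annotation, so gene totals may not separate their reads. Of the related enzymes, Mettl2 (chromosome 11) fell, with 14.5 and 14.7 CPM in KO cells, against 40.2 and 44.5 CPM in WT cells (log2 change -1.47 ± 0.267, adjusted p = 0.000149), while its total RNA log2 change was -0.40 (adjusted p = 0.299) and the difference between both changes was not called (interaction adjusted p = 0.305). Mettl8 had 7.29 and 10.4 CPM in KO cells, against 9.45 and 11.2 CPM in WT cells, with overlapping values (adjusted p = 0.746). Sars had 248 and 233 CPM in KO cells, against 254 and 272 CPM in WT cells and a log2 change of -0.13 ± 0.143 that was not called (adjusted p = 0.555).

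Because METTL6 acts on serine tRNAs, footprint-sized stretches of 10 codons with many serine codons are shown for 6 genes that the results turn on. Slc5a1 and Bhmt are the largest increase and the largest decrease among protein-coding genes with a value above 0 in all 4 libraries, and the other 4 genes were chosen after their values were seen. Capitals mark serine codons, of which each stretch holds the most in its coding sequence. The sequences are from the longest GENCODE vM21 coding sequence (GRCm38, the assembly of mm10), and codons are counted from the start codon.
Slc5a1, codons 384 to 393: TCTgtcatgatggctTCCctcatgAGCTCC
Bhmt, codons 121 to 130: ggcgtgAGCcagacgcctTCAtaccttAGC
Fn1, codons 1861 to 1870: TCTccagacAGCTCATCGgtgattgtgTCA
Spp1, codons 283 to 292: attTCTcatgaattagagAGTTCATCTTCT
Nanog, codons 9 to 18: cacAGTttgcctAGTTCTgaggaagcaTCG
Srrm2, codons 2486 to 2495: AGCTCTTCCTCCTCTTCATCATCATCTAGC
Serine takes 6.32% of the codons of Slc5a1, 4.67% of Bhmt, 7.71% of Fn1, 17.3% of Spp1, 13.8% of Nanog and 23.2% of Srrm2, and all 10 codons of the Srrm2 stretch are serine. The median over the genes tested was 7.73%. The serine-poor Bhmt and the serine-rich Nanog (chromosome 6) fell, while Slc5a1, Fn1 and the serine-rich Spp1 rose. Srrm2, with the highest share of the 6, was not called in footprints. Its total RNA was higher in KO, so its footprint change was lower than its total RNA change. Whether serine share and direction are linked was not tested with these 6 genes.

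Footprints of 2618 genes (21.1% of those tested) differed between KO and WT at an adjusted p below 0.05 in limma-trend. Of these, 1156 (9.33%) were higher and 1462 (11.8%) were lower in KO, and 1113 of the higher and 1450 of the lower are protein-coding. The median log2 change of all genes was -0.13, with a median SE of 0.302. A change of at least 1 on the log2 scale was called for 597 higher and 528 lower genes. The KO and WT libraries did not overlap for 2983 genes (24.1%) higher and 4433 genes (35.8%) lower in KO, and 2610 of the 2618 called genes were among them. Calls were made for 143 of 2542 genes below a mean of 5 CPM and for 2475 of 9843 genes at or above it.

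**Figure D1:**
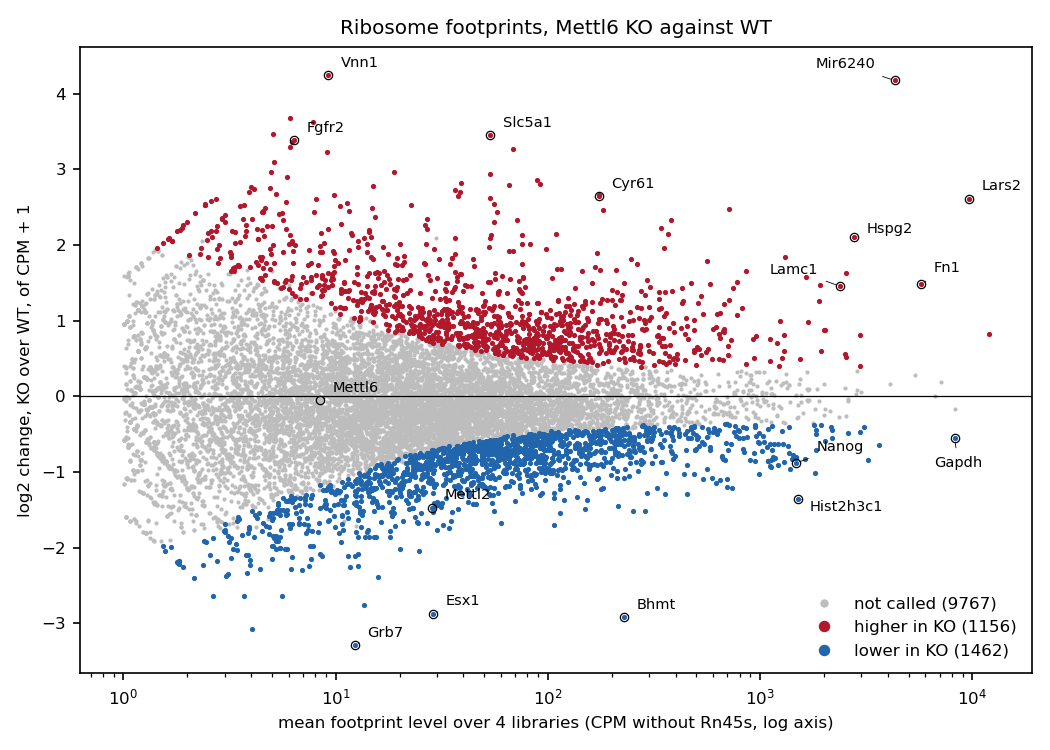
Each point is a gene, with its mean footprint level over 4 libraries in CPM (log axis) against its log2 change, KO over WT, of CPM + 1. The 1156 genes called higher in KO are red, the 1462 called lower blue, and called changes reach closer to 0 at high levels than at low ones.

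The balance between both directions depends on how the libraries are scaled. Higher genes make up 44.2% of the calls with CPM rescaled without Rn45s, 56.5% (1248 higher, 959 lower) with CPM as deposited, 54.3% (1250 and 1050) after quantile normalization and 59.6% (1415 and 959) after scaling by a trimmed mean of M values (TMM), which moves the median of all genes up by 0.11. Without Lars2 and the structured RNA rows described below, an alternative chosen after the data were seen, they make up 50.4% (1217 and 1200). The number of calls rests on having all 4 libraries: 325 genes passed without the first KO library, 39 without the second, 671 without the first WT library and 623 without the second, each in a fit with 1 residual degree of freedom. In a fit that also takes the spread of the total RNA libraries, 2205 genes passed with all libraries, and 1266, 804, 1297 and 1212 passed with the same libraries left out in turn. Counts over gene lists below fall in the same way, and are given without single libraries for the leading lists. In the main fit, list counts stand beside 9.33% higher and 11.8% lower of all genes tested. Those after TMM scaling stand beside 1415 higher and 959 lower of all genes.

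Chromosomes 6, 8 and 11 stood apart: their genes were shifted down in KO as whole groups. The median log2 change was -0.50 on chromosome 6, -0.48 on chromosome 8 and -0.55 on chromosome 11, against medians from -0.14 on chromosome 13 to 0.01 on the X among the other autosomes and the X. Of the 2311 genes tested on those 3 chromosomes, 778 (33.7%) fell and 99 (4.28%) rose, and of the 10042 genes on all others 683 (6.80%) fell and 1055 (10.5%) rose. The 3 chromosomes thus held 53.2% of all lower calls with 18.7% of the genes tested. Total RNA gave medians of -0.47, -0.42 and -0.46 for chromosomes 6, 8 and 11. After each chromosome's median was subtracted, 1372 genes were called higher and 575 lower. The medians come from these same changes, so fewer lower calls on chromosomes 6, 8 and 11 follow by construction. List counts under this setting below stand beside those 1372 and 575 genes and are no separate check. The DNA of these cells was not analysed here, and the chromosome is given beside each decrease on these 3 chromosomes that is named below.

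**Figure D2:**
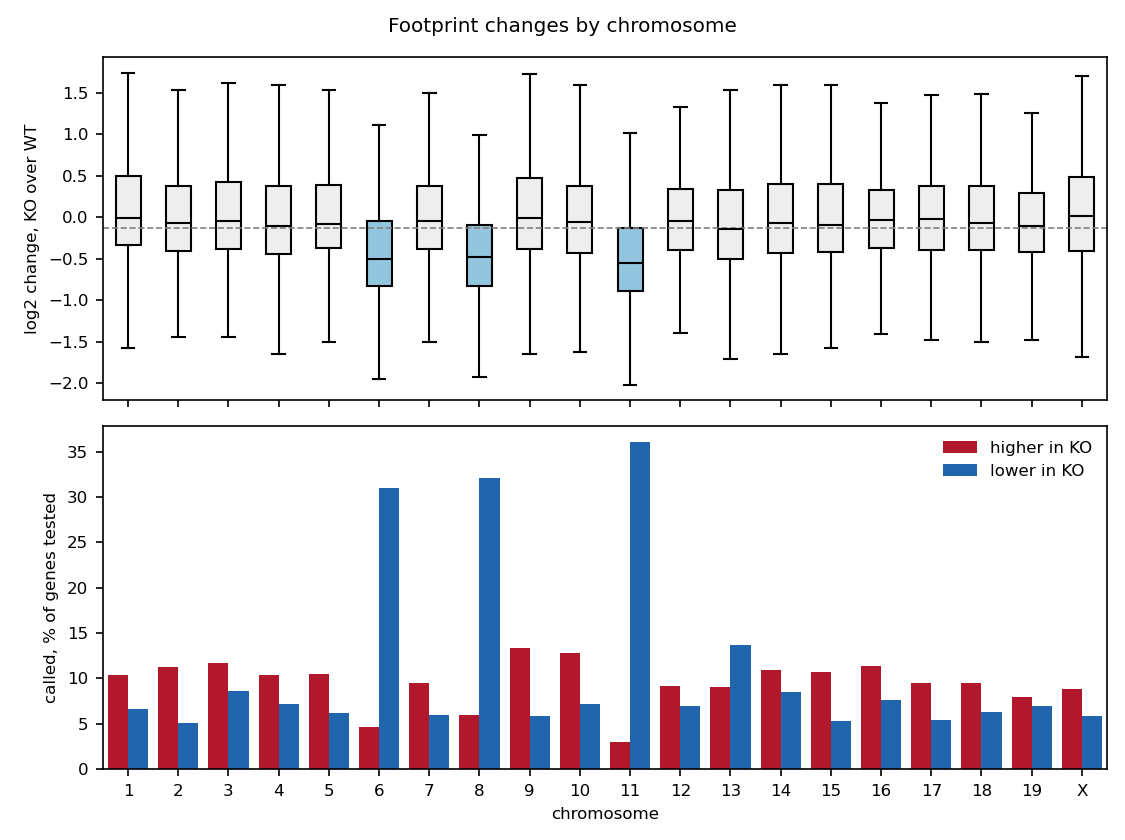
The upper panel shows the log2 change in footprints, KO over WT, by chromosome (line, median; box, quartiles; whiskers, 1.5 times the box; points beyond not drawn), with chromosomes 6, 8 and 11 in blue and the median of all genes dashed. The lower panel gives the percent of the genes tested on each chromosome that were called higher (red) or lower (blue) in KO, where 33.7% of genes on the 3 blue chromosomes were lower.

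The 15 largest increases named were of protein-coding genes with at most 30.2 CPM in either WT library. Vnn1, a surface pantetheinase, had 13.98 and 22.8 CPM in KO cells, against 0 and 0 CPM in WT cells (adjusted p = 1.51e-06), and no fold is given because both WT libraries are at 0. Slc5a1, a sodium-coupled glucose transporter at chr5:33104219-33162699 (GRCm38), had 95.2 and 103 CPM in KO cells, against 8.19 and 8.03 CPM in WT cells. Its log2 change of 3.45 ± 0.251 (12.2-fold, adjusted p = 1.31e-11) stood beside one of 2.31 in total RNA. Fgfr2, a receptor for fibroblast growth factors, had 10.7 and 14.2 CPM in KO cells, against 0.63 and 0 CPM in WT cells, at or below 1 read in WT (log2 change 3.38 ± 0.569, adjusted p = 5.85e-05). Both KO libraries lay far above both WT libraries in all 3 genes.

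Further genes of this group were measured at higher levels. Cd109, a surface protein that binds transforming growth factor beta, had 31.9 and 36.1 CPM in KO cells, against 3.75 and 3.21 CPM in WT cells (log2 change 2.97 ± 0.368). F2r, the thrombin receptor, had 155 and 166 CPM in KO cells, against 30.2 and 16.1 CPM in WT cells (log2 change 2.81 ± 0.224), and Pros1, protein S of the anticoagulant pathway, had 138 and 177 CPM in KO cells, against 24.2 and 17.7 CPM in WT cells (log2 change 2.86 ± 0.209). Vcan, the matrix proteoglycan versican, had 101 and 128 CPM in KO cells, against 11.97 and 20.1 CPM in WT cells (log2 change 2.80 ± 0.239). Slc13a5, a citrate transporter that lies on chromosome 11, rose all the same, with 57.2 and 80.7 CPM in KO cells, against 8.82 and 8.83 CPM in WT cells (log2 change 2.81 ± 0.273). The other increases that the rule names are Edn1 (endothelin), Matn1 (a cartilage matrix protein), Limch1, Accsl, Vmn2r55 and Tmppe, with log2 changes between 2.78 and 3.36, and Npcd, with 14.9 and 9.37 CPM in KO, against 0 and 0 CPM in WT. Npcd overlaps Nptxr and Cbx6, and Tmppe overlaps Glb1, so their reads cannot be told apart from those of the neighbours in gene totals, and Vmn2r55 was listed at 0 in all total RNA libraries.

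The largest decrease among protein-coding genes above 0 in all 4 libraries was that of Bhmt, betaine-homocysteine methyltransferase, which makes methionine from homocysteine. Bhmt (chromosome 13, chr13:93616891-93637758) had 60.6 and 45.4 CPM in KO cells, against 365 and 445 CPM in WT cells, a log2 change of -2.92 ± 0.168 (adjusted p = 1.65e-13) beside -3.50 in total RNA. Its neighbour Bhmt2, which uses S-methylmethionine, fell too, with 8.65 and 14.5 CPM in KO cells, against 23.3 and 32.7 CPM in WT cells (log2 change -1.23 ± 0.325, adjusted p = 0.0066). Grb7, a receptor adaptor on chromosome 11, had 4.66 and 0 CPM in KO cells, against 24.6 and 20.1 CPM in WT cells (log2 change -3.29 ± 0.556), and Esx1, a homeobox gene of the X, had 5.32 and 6.65 CPM in KO cells, against 64.9 and 38.5 CPM in WT cells (log2 change -2.88 ± 0.323). In Bhmt, Grb7 and Esx1 both KO libraries lay far below both WT libraries, and 1 KO library of Grb7 was at 0.

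The remaining 12 named decreases lay at low levels. Map7d2, a microtubule-associated protein of the X, had 4.02 and 4.797 CPM in KO cells, against 26.3 and 28.3 CPM in WT cells (log2 change -2.39 ± 0.37). The others include Padi2 and Padi4, enzymes that convert arginine to citrulline, with log2 changes of -2.25 and -2.15, the disintegrin Adam23 (-2.25), the basement membrane anchor Lad1 (-2.25), Selenbp1 (-2.29), Myom3 (-2.28) and the glutathione-cleaving Ggt1 (-2.11). Zswim7 (chromosome 11), Prr36 and Ushbp1 (chromosome 8) and Usp26 (X) had log2 changes between -2.64 and -2.12.

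**Figure D3:**
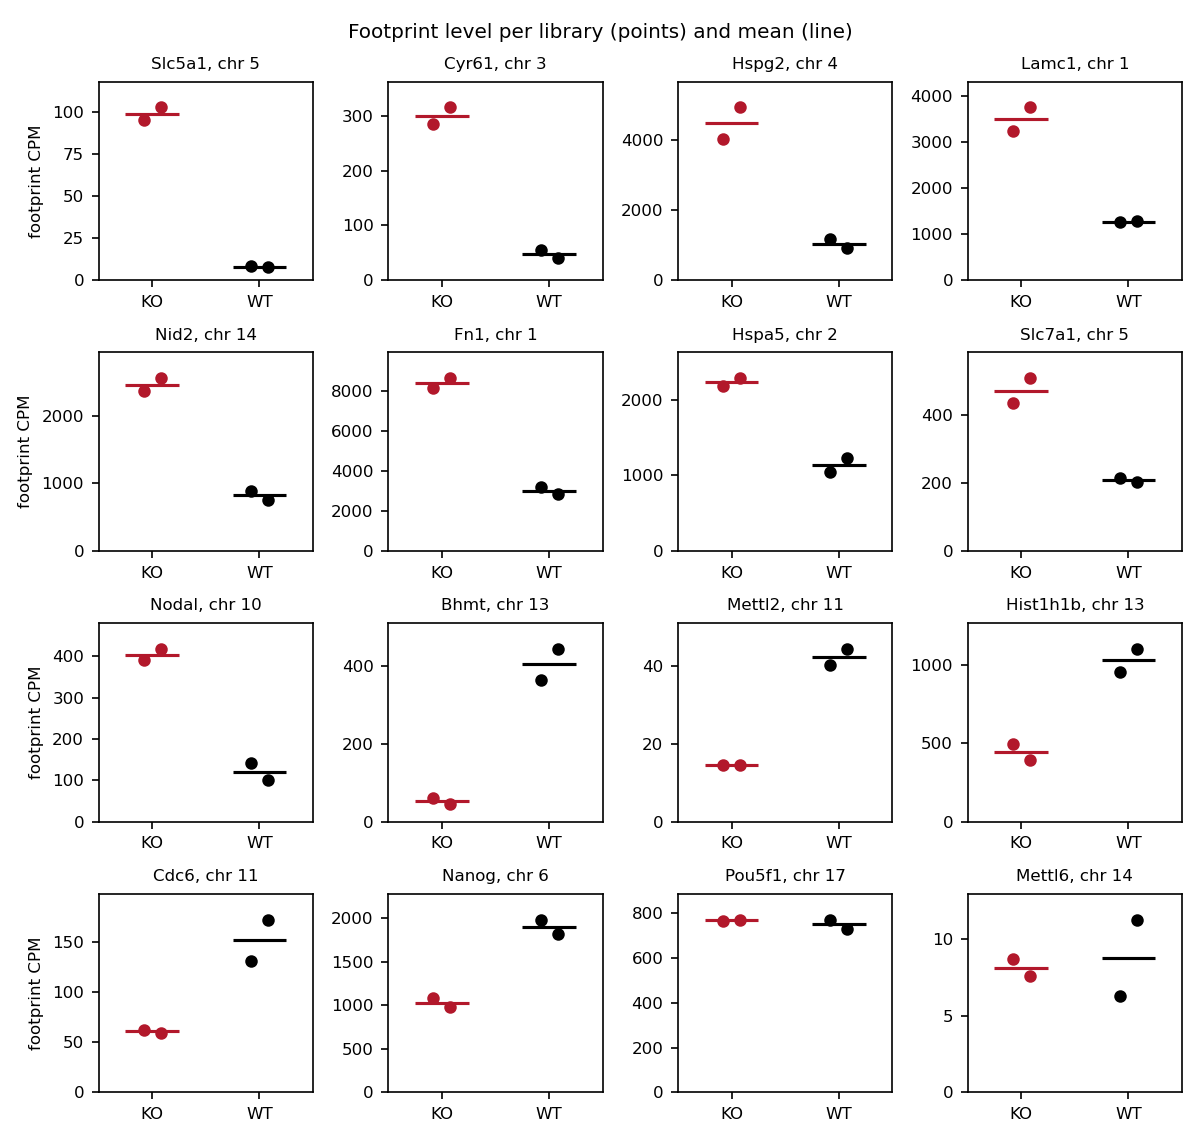
Footprint levels in CPM (each axis from 0) of 16 genes in the 2 KO libraries (red) and the 2 WT libraries (black), with the mean as a line and the chromosome in each title. KO lies above WT from Slc5a1 to Nodal and below it from Bhmt to Nanog, while the libraries of Mettl6 overlap and those of Pou5f1 lie close together.

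Components of the basement membrane, the sheet of laminin, nidogen, perlecan and collagen IV that primitive endoderm lays down and that stem cells also secrete, were mostly higher in KO. In the list of primitive endoderm and basement membrane genes, 12 of 17 tested members rose and 1 fell, with a median log2 change of 0.97, beside 9.33% higher and 11.8% lower and a median of -0.13 over all genes tested. Their summed level was 14750 and 16932 CPM in KO and 5912 and 5353 CPM in WT. Perlecan, encoded by Hspg2, had 4016 and 4925 CPM in KO cells, against 1172 and 913 CPM in WT cells (log2 change 2.10 ± 0.144, 4.29-fold, adjusted p = 3.44e-12). The laminin chain gene Lamc1 had 3241 and 3750.2 CPM in KO cells, against 1259.7 and 1287 CPM in WT cells (log2 change 1.45 ± 0.134, adjusted p = 2.62e-09), and its partner Lama1 had 458 and 569 CPM in KO cells, against 200.3 and 191 CPM in WT cells (log2 change 1.38 ± 0.144). Nidogens bridge laminin and collagen IV, and both rose, with 2734 and 2895 CPM in KO, against 1002 and 1028 CPM in WT for Nid1 and 2371 and 2559 CPM in KO, against 891 and 760.2 CPM in WT for Nid2.

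Col4a1 and Col4a2, the chains of collagen IV, rose by 0.97 and 0.79 on the log2 scale although both lie on chromosome 8, and Sparc, a collagen-binding matrix protein on chromosome 11, rose by 0.70. Serpinh1, the collagen chaperone, rose by 0.47. Among regulators of primitive endoderm, the transcription factor gene Gata4 fell, with 5.32 and 7.92 CPM in KO cells, against 18.3 and 13.6 CPM in WT cells (log2 change -1.16 ± 0.392, adjusted p = 0.033), and Gata6 and Sox17 averaged 1.66 and 1.76 CPM in KO and 1.34 and 1.35 CPM in WT and were not called. Dab2, an endocytic adaptor, rose, with 9.32 and 8.55 CPM in KO, against 1.89 and 3.21 CPM in WT (adjusted p = 0.0292). In total RNA, 10 of 15 tested members of this list were higher and none was lower, beside 7.11% higher and 7.69% lower of the 13302 genes tested there. With 1 library left out and the total RNA libraries in the fit, 6 to 9 members were higher and none lower, with 6 without the second KO library and 9 with all libraries in that fit.

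The list of feeder and fibroblast genes had 6 of 12 tested members higher (50%) and 1 lower (8.33%), beside 9.33% and 11.8% of all genes tested. Its median log2 change was 0.89, and its summed level was 9210 and 9831 CPM in KO and 3590 and 3187 CPM in WT. Most of that sum is Fn1, fibronectin, with 8177 and 8664 CPM in KO cells, against 3192 and 2855 CPM in WT cells (log2 change 1.48 ± 0.139, 2.79-fold, adjusted p = 3.58e-09). Cyr61 and Ctgf encode matricellular proteins that are classic targets of the YAP coactivator. Cyr61 had 285 and 315 CPM in KO cells, against 55.4 and 40.1 CPM in WT cells (log2 change 2.64 ± 0.173) and Ctgf had 278 and 343 CPM in KO cells, against 57.9 and 52.2 CPM in WT cells (log2 change 2.47 ± 0.165). Vim, Col5a1 and Thbs1 also rose, by 0.75, 1.07 and 2.19. The defining feeder marker Thy1 fell instead, with 1.33 and 3.800 CPM in KO, against 6.93 and 10.4 CPM in WT (adjusted p = 0.0376), and Col1a1 averaged 2.61 CPM in KO and 3.32 CPM in WT. With total RNA in the fit, 6 members were higher with all libraries and 3 to 6 with 1 library left out, 3 without the second WT library. In these bulk libraries, fewer cells of a type and less RNA per cell cannot be told apart.

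Actin and YAP target genes went in both directions, with 8 of 27 higher (29.6%) and 3 lower (11.1%), beside 9.33% and 11.8% of all genes tested. Their median log2 change was 0.06. Flna, a filamin that crosslinks actin, rose, with 412 and 464 CPM in KO cells, against 154 and 147 CPM in WT cells (log2 change 1.53 ± 0.144). Amotl2, a YAP-binding angiomotin, rose by 0.94. Pfn1, profilin, and Actg1, gamma-actin, both on chromosome 11, fell by 0.92 and 0.65, and beta-actin (Actb, chromosome 5), a near-copy of Actg1, had 7942 and 7196 CPM in KO, against 6599 and 6702 CPM in WT and was not called (adjusted p = 0.379). All 3 lower members lie on chromosomes 6, 8 or 11, and after each chromosome's median was subtracted 8 members were higher and none lower.

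Several chaperones of the endoplasmic reticulum (ER), where secreted proteins fold, rose. Of 24 genes of the unfolded protein response and ER folding, 10 rose (41.7%) and 3 fell (12.5%), beside 9.33% and 11.8% of all genes tested. Their median log2 change was 0.33, and their summed level was 16556 and 18399 CPM in KO and 11134 and 12166 CPM in WT. Hspa5, the ER chaperone BiP, had 2175 and 2284 CPM in KO cells, against 1047 and 1223 CPM in WT cells (log2 change 0.98 ± 0.134, adjusted p = 3e-06). Hsp90b1, an ER-resident HSP90, had 2428 and 2763 CPM in KO cells, against 1296 and 1535 CPM in WT cells (log2 change 0.88 ± 0.137). Pdia3 and Pdia6, disulfide isomerases, rose by 0.81 and 0.80, and Syvn1, a ubiquitin ligase of ER-associated degradation, by 1.12.

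Calr (chromosome 8) and Canx (chromosome 11), the lectin chaperones calreticulin and calnexin, rose by 0.56 and 0.50. Canx had a total RNA log2 change of -0.06 (adjusted p = 0.713), and its interaction was not called (adjusted p = 0.225). Xbp1, a transcription factor of this response on chromosome 11, fell, with 61.9 and 84.5 CPM in KO, against 120.3 and 111 CPM in WT (adjusted p = 0.00818). Leaving out 1 library in the fit with total RNA gave 4 to 10 higher members and 0 to 2 lower ones, with 4 and 2 without the second KO library.

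Of 27 heat shock and cytosolic chaperones, 2 were higher (7.41%) and 9 lower (33.3%), beside 9.33% and 11.8% of all genes tested. Their median log2 change was -0.36, and 5 of the 9 lie on chromosomes 6, 8 and 11. The counts were 3 higher and 5 lower after TMM scaling, and 3 higher and 2 lower (median -0.16) after the chromosome medians were subtracted. On chromosome 6, the HSP90 partner Fkbp4 had 964 and 871 CPM in KO, against 1670.4 and 1668 CPM in WT, and the chaperonin subunit Cct7 had 697 and 643 CPM in KO, against 1172 and 1249.9 CPM in WT. Hspa4 (chromosome 11) fell by 0.71, while the small heat shock protein gene Hspb1 and the mitochondrial chaperonin gene Hspd1 rose by 0.50 and 0.47.

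Replication-dependent histones, which package DNA as it is copied in S phase, formed the list with the most lower members. Of 62 tested, 49 fell (79.0%, beside 11.8% of all genes tested) and none rose, with a median log2 change of -0.82. They took 3.53% and 2.99% of the footprint level outside Rn45s in KO and 5.85% and 5.19% in WT. The histone H3 gene Hist2h3c1 had 953 and 739.5 CPM in KO cells, against 2354 and 1959 CPM in WT cells (log2 change -1.35 ± 0.142, adjusted p = 2.78e-08). The linker histone gene Hist1h1b had 493 and 392 CPM in KO cells, against 954 and 1102 CPM in WT cells (log2 change -1.22 ± 0.14), and the H2B gene Hist1h2bm had 254 and 272 CPM in KO cells, against 666 and 623 CPM in WT cells (log2 change -1.29 ± 0.136). The H4 gene Hist4h4 on chromosome 6 fell by 1.29, and the linker histone gene Hist1h1c on chromosome 13 fell by 0.82.

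Only 3 of the 49 lie on chromosomes 6, 8 or 11, and 44 were lower after each chromosome's median was subtracted. The same number, 44, was lower after TMM scaling. Total RNA had 40 of 62 lower and none higher. With the total RNA libraries in the fit, 33 to 43 were lower when 1 library was left out, the fewest without the second KO library, against 45 with all libraries. In the fit of footprints alone, 25 to 30 were lower without 1 of the other 3 libraries and 1 without the second KO library. Histone genes are near-identical copies of each other, so how the authors' counting shared reads between single members is uncertain.

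Genes of S phase and DNA replication followed, with 17 of 40 lower (42.5%) and none higher, beside 11.8% lower and 9.33% higher of all genes tested. Their median log2 change was -0.46. Cdc6 (chromosome 11), which loads the replicative helicase, had 62.6 and 59.8 CPM in KO cells, against 131 and 173 CPM in WT cells (log2 change -1.28 ± 0.178). Mcm2 (chromosome 6), a subunit of that helicase, had 524 and 439.8 CPM in KO cells, against 802 and 881 CPM in WT cells (log2 change -0.81 ± 0.137), and Pola2 (chromosome 19), a subunit of DNA polymerase alpha, had 183 and 198 CPM in KO cells, against 309 and 409 CPM in WT cells (log2 change -0.90 ± 0.152). Slbp, which binds histone mRNAs, fell by 0.81 and lies on chromosome 5. Of the 17, 9 lie on chromosomes 6, 8 and 11. The subtraction of chromosome medians left 6 lower members and 1 higher, and TMM scaling gave 10 lower and 1 higher. In the fit with total RNA, 16 were lower with all libraries, 11, 4, 10 and 7 without the first or second KO or the first or second WT library, in that order.

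Mitosis genes had 2 of 38 higher (5.26%) and 9 lower (23.7%), beside 9.33% and 11.8% of all genes tested. Of the 9, 5 lie on chromosomes 6, 8 and 11, and the median log2 change of the list was -0.24. Aurkb and Top2a, a mitotic kinase and a DNA topoisomerase on chromosome 11, fell by 1.06 and 0.71. The 2 higher members were Ccnf, a cyclin on chromosome 17, and Mki67, the proliferation antigen on chromosome 7: Ccnf had 301 and 303 CPM in KO, against 192 and 202 CPM in WT and Mki67 had 102 and 99.7 CPM in KO, against 66.1 and 69.04 CPM in WT.

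Neither Pou5f1 nor Sox2, the core pluripotency factors, was called. Pou5f1, encoding OCT4, had 766 and 769 CPM in KO cells, against 770.3 and 729.7 CPM in WT cells, and Sox2 had 583 and 599 CPM in KO cells, against 698 and 559 CPM in WT cells. Their log2 changes were 0.03 ± 0.131 and -0.08 ± 0.138 (adjusted p = 0.887 and 0.727). Klf4 and Esrrb, further factors of the naive state, missed the threshold, Klf4 at a log2 change of -0.43 ± 0.165 (adjusted p = 0.0623) and Esrrb at -0.23 ± 0.138 (adjusted p = 0.245). Klf4 passed it under some settings, among them a minimum of 5 CPM (adjusted p = 0.0455), and its adjusted p ranged from 0.0176 to 0.703 over all settings run. Myc was near the minimum, with 1.33 and 1.900 CPM in KO, against 1.89 and 0.803 CPM in WT. Nanog (chromosome 6) fell, with 1086 and 977 CPM in KO cells, against 1985 and 1825 CPM in WT cells (log2 change -0.89 ± 0.132, adjusted p = 1.15e-05), and Zfp42 (chromosome 8), the marker also called Rex1, fell, with 570.4 and 571 CPM in KO cells, against 820.1 and 955 CPM in WT cells (log2 change -0.63 ± 0.134).

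Over the list of core and naive pluripotency genes, 8 of 30 rose (26.7%) and 7 fell (23.3%), beside 9.33% and 11.8% of all genes tested. The median of the list was 0.06. Of the 7, 5 lie on chromosomes 6, 8 and 11, among them Dppa3 (Stella), with 30.6 and 25.6 CPM in KO, against 66.8 and 100.3 CPM in WT (log2 change -1.51 ± 0.223). Members that rose include Nr0b1 (DAX1), with 116 and 90.2 CPM in KO, against 47.2 and 43.3 CPM in WT, Sall4, with 449.9 and 422 CPM in KO, against 275 and 277 CPM in WT, and Tfcp2l1, with 498 and 449 CPM in KO, against 361 and 315 CPM in WT. After the chromosome medians were subtracted, 8 were higher and 3 lower. Among genes of primed cells and early lineages, 2 of 13 rose (15.4%) and 3 fell (23.1%), and Nes, the intermediate filament nestin, fell by 1.39.

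Ligands and receptors that act on stem cells moved in both directions. Of 27 genes of ERK, Wnt, Nodal and BMP signalling, 8 were higher (29.6%) and 3 lower (11.1%), beside 9.33% and 11.8% of all genes tested. Their median log2 change was 0.36. Nodal, the TGF-beta family ligand, had 390.0 and 418 CPM in KO cells, against 141 and 101 CPM in WT cells (log2 change 1.75 ± 0.158, adjusted p = 1.67e-09). Its antagonist Lefty2 fell, with 126 and 96.2 CPM in KO cells, against 209 and 261 CPM in WT cells (log2 change -1.08 ± 0.166). Fst, the activin inhibitor follistatin, rose, with 17.97 and 19.9 CPM in KO, against 3.67 and 4.82 CPM in WT (log2 change 1.94 ± 0.402). The LIF receptor genes, Lifr and Il6st, rose by 0.71 and 0.72, and Socs3 (chromosome 11), a feedback inhibitor downstream of LIF, fell by 0.59. Dusp6, a phosphatase induced by ERK, had 7.32 and 7.599 CPM in KO, against 0.63 and 2.41 CPM in WT (adjusted p = 0.0176).

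Genes of epithelial and trophoblast cells had 2 of 15 higher and 2 lower (13.3% each, near the 9.33% and 11.8% of all genes tested). The tight junction genes Cldn4 and Cldn7 went in opposite directions: Cldn4 (chromosome 5) had 275 and 350.3 CPM in KO cells, against 136 and 119.6 CPM in WT cells (log2 change 1.27 ± 0.156), and Cldn7 (chromosome 11) had 8.65 and 9.499 CPM in KO cells, against 40.9 and 40.1 CPM in WT cells (log2 change -2.04 ± 0.296). In the list of 2-cell-like genes, 2 of 7 rose (28.6%) and none fell. Zscan4c had 5.76 and 13.04 CPM in KO, against 3.17 and 2.21 CPM in WT (adjusted p = 0.0469). Zscan4b had 1.36 and 10.7 CPM in KO, against 0 and 0 CPM in WT (adjusted p = 0.0193). Both are near-identical copies whose reads the counting may have split. The call of Zscan4c held in 7 of 21 other settings, and that of Zscan4b in 13 of 20, with a pseudocount of 0.1 among those that lost both. In total RNA, Zscan4c had 27.2 and 14.4 CPM in KO, against 0 and 0.410 CPM in WT. Of 6 members of this list tested there, 1 was called higher and 0 lower, with a median log2 change of 1.29.

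Targets of the tumour suppressor p53 had 5 of 22 higher (22.7%) and 1 lower (4.55%), beside 9.33% and 11.8% of all genes tested. Their median log2 change was 0.25. Plk2, a stress-responsive kinase, had 108 and 108 CPM in KO cells, against 28.3 and 27.3 CPM in WT cells (log2 change 1.92 ± 0.199), Perp, a membrane protein of the apoptotic response, had 39.9 and 41.8 CPM in KO, against 17.01 and 9.63 CPM in WT (log2 change 1.60 ± 0.292), and Sesn2, a sestrin that senses leucine, rose by 0.77. Other targets were not called, among them Cdkn1a (p21), with 116 and 102 CPM in KO, against 122 and 114 CPM in WT (adjusted p = 0.666), and Mdm2, with a log2 change of 0.47 ± 0.188 (adjusted p = 0.0731). Trp53 itself, on chromosome 11, had 585 and 456 CPM in KO, against 695 and 691 CPM in WT, a log2 change of -0.42 ± 0.14 (adjusted p = 0.0288) that was no longer called under 6 of the other settings besides leaving out a library and that turned to 0.13 after the chromosome medians were subtracted.

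The integrated stress response, in which ATF4 raises amino acid transport and synthesis, gave 7 of 29 genes higher (24.1%) and 6 lower (20.7%). Over all genes tested the shares were 9.33% and 11.8%. The median log2 change of the list was -0.24. Atf4 had 166 and 179 CPM in KO cells, against 294 and 189 CPM in WT cells, a log2 change of -0.45 ± 0.168 that was not called (adjusted p = 0.0543). It passed under some settings, among them a minimum of 5 CPM (adjusted p = 0.0391), and its adjusted p ranged from 0.00588 to 0.635 over all settings run. The cationic amino acid transporters rose, Slc7a3 with 391 and 426 CPM in KO cells, against 142 and 182 CPM in WT cells (log2 change 1.33 ± 0.15) and Slc7a1 with 436 and 509 CPM in KO cells, against 216 and 203 CPM in WT cells (log2 change 1.17 ± 0.142). Cth, which makes cysteine, rose by 0.86 and Slc7a5, a leucine transporter, by 0.43 despite its place on chromosome 8. Other biosynthetic members fell, chosen as examples after their values were seen, with log2 changes of -0.55 for Asns (asparagine synthetase, chromosome 6), -1.21 for Pycr1 (proline synthesis, chromosome 11) and -0.89 for Mthfd2 (mitochondrial folate metabolism, chromosome 6). Of the 6 lower members, 4 lie on chromosomes 6, 8 and 11, and after the chromosome medians were subtracted 8 members were higher and 3 lower.

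Cytosolic ribosomal proteins were called in both directions, and those called lower lay on chromosomes 6, 8 and 11. Of 48 proteins of the large ribosomal subunit, 2 rose (4.17%) and 7 fell (14.6%), beside 9.33% higher and 11.8% lower of all genes tested. All 7 lay on those chromosomes, the median log2 change of the list was -0.06, and TMM scaling gave 4 in each direction. On chromosome 11, Rpl27 had 1084 and 1065 CPM in KO, against 1876 and 1877 CPM in WT and Rpl38 had 1047 and 989 CPM in KO, against 1957 and 1658 CPM in WT. Rpl14 (chromosome 9) rose, with 652 and 603 CPM in KO, against 311 and 377 CPM in WT. Of 33 proteins of the small subunit, 2 rose (6.06%) and 1 fell (3.03%): Rps15a rose by 0.92, Rps29 by 0.60, and Rps27a (chromosome 11) fell by 0.65. Ribosomal proteins have many processed copies in the genome, so single values are uncertain. Mitochondrial ribosomal proteins had 2 of 77 higher and 14 lower, 11 of the 14 on chromosomes 6, 8 and 11, and 4 higher and 1 lower after the chromosome medians were subtracted.

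Initiation factors had none of 39 higher and 7 lower (17.9%), and factors of elongation, termination and recycling none of 23 higher and 7 lower (30.4%). Over all genes tested 9.33% were higher and 11.8% lower. After TMM scaling 4 and 3 were lower in these lists, and after the chromosome medians were subtracted 4 and 0. Eif3d (chromosome 15), a subunit of initiation factor eIF3, had 236 and 251 CPM in KO cells, against 433 and 455 CPM in WT cells (log2 change -0.86 ± 0.139), and Eif1ax (X) had 85.8 and 77.9 CPM in KO cells, against 173 and 144 CPM in WT cells (log2 change -0.94 ± 0.168). Eif5a (chromosome 11), which helps ribosomes past poor substrates such as proline runs, and Abce1 (chromosome 8), which splits ribosomes after termination, fell by 0.55 and 0.58. Among 22 cytosolic aminoacyl-tRNA synthetases, 2 rose (9.09%, near the 9.33% of all genes) and 4 fell (18.2%, beside 11.8% of all genes). In this list, 3 were higher and 1 lower after the chromosome medians were subtracted. Kars, Aars and Gars, on chromosomes 8, 8 and 6, fell by 0.88, 0.60 and 0.63, and Qars and Mars rose by 0.72 and 0.45. Of 48 tRNA modification enzymes none rose and 6 fell (12.5%, near the 11.8% of all genes), and 2 were lower after TMM scaling.

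Ribosome biogenesis genes had 1 of 44 higher (2.27%) and 10 lower (22.7%), beside 9.33% and 11.8% of all genes tested, and 3 were lower after TMM scaling. Npm1 (chromosome 11) and Ncl (chromosome 1) encode the abundant nucleolar proteins nucleophosmin and nucleolin. Npm1 had 2162 and 2151 CPM in KO, against 2712 and 3338 CPM in WT, and Ncl had 1768 and 1931 CPM in KO, against 2300.2 and 2601 CPM in WT. The log2 change of Npm1 turned to 0.07 after the chromosome medians were subtracted. The calls of both were lost with CPM as deposited and after TMM scaling, and that of Ncl held in 9 of 21 other settings. Proteasome subunits had none of 32 higher and 7 lower (21.9%), 6 of them on chromosomes 6, 8 and 11, and 1 was lower after the chromosome medians were subtracted.

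Both glucose transporter genes measured in the glycolysis list rose. Slc2a1 (GLUT1) had 757 and 740.2 CPM in KO cells, against 272 and 329 CPM in WT cells (log2 change 1.32 ± 0.138, adjusted p = 2.65e-08), and Slc2a3 (GLUT3) rose by 0.51 on chromosome 6. Among 24 genes of glycolysis and glucose uptake 3 rose and 3 fell (12.5% each, near the shares of all genes given below). The 3 lower ones lie on chromosomes 6, 8 and 11, and 6 were higher and 1 lower after TMM scaling. Gapdh (chromosome 6) had 7243 and 6152 CPM in KO cells, against 10100.1 and 9482 CPM in WT cells (log2 change -0.55 ± 0.145). Oxidative phosphorylation had 8 of 63 higher (12.7%) and 9 lower (14.3%), near the 9.33% and 11.8% of all genes tested. After TMM scaling 14 were higher and 3 lower, beside 1415 higher and 959 lower of all 12385 genes.

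Lipid synthesis was mixed. Of 25 genes of cholesterol synthesis and uptake, 4 rose (16%) and 3 fell (12%), beside 9.33% and 11.8% of all genes tested. Their median log2 change was -0.22, and Fdps, which makes farnesyl diphosphate, fell by 0.90. Elovl6 and Elovl5, fatty acid elongases, rose by 1.04 and 0.80. Fasn, fatty acid synthase, and its regulator Srebf1, both on chromosome 11, fell by 0.63 and 0.72, and Scd1 (chromosome 19), a desaturase, fell by 0.48. The list of fatty acid synthesis had 3 of 19 higher (15.8%) and 7 lower (36.8%), and 3 higher and 3 lower after TMM scaling.

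Serine, glycine and one-carbon metabolism supplies the amino acid that METTL6-modified tRNAs carry. Of 23 genes, 3 rose (13.0%) and 7 fell (30.4%), beside 9.33% and 11.8% of all genes tested. After TMM scaling 6 rose and 4 fell, so the direction of the counts changed with the scaling. The calls over all genes changed direction too, from 1156 higher and 1462 lower to 1415 higher and 959 lower. Phgdh (chromosome 3), the first enzyme of serine synthesis, had 237 and 229.9 CPM in KO cells, against 359 and 307 CPM in WT cells (log2 change -0.51 ± 0.144, adjusted p = 0.0108). Shmt1 (chromosome 11), which converts serine to glycine, had 132 and 117 CPM in KO, against 227 and 248 CPM in WT (log2 change -0.93 ± 0.153). Tdh, the threonine dehydrogenase on which mouse stem cells depend, rose, with 935 and 888 CPM in KO cells, against 498 and 592 CPM in WT cells (log2 change 0.75 ± 0.135), as did Gldc and Amt of the glycine cleavage system, by 0.64 and 0.81.

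In chromatin, the DNA methyltransferases parted: Dnmt3b had 166 and 139.6 CPM in KO cells, against 70.5 and 81.8 CPM in WT cells (log2 change 0.99 ± 0.171), its cofactor Dnmt3l rose by 0.74, and Dnmt3a had 34.6 and 24.7 CPM in KO cells, against 65.5 and 68.2 CPM in WT cells (log2 change -1.17 ± 0.222). The list of DNA methylation and germline genes had 4 of 26 higher (15.4%) and 3 lower (11.5%), beside 9.33% and 11.8% of all genes tested. In it, Rhox5, a homeobox gene of the X, had 108 and 136 CPM in KO, against 33.4 and 25.7 CPM in WT. The germ cell gene Dazl had 57.9 and 56.04 CPM in KO, against 118 and 113 CPM in WT. Of 23 imprinted genes 2 rose (8.70%) and 1 fell (4.35%). Igf2r, the receptor that clears IGF2, had 689 and 772 CPM in KO, against 344 and 342 CPM in WT (log2 change 1.09 ± 0.135), and Igf2 had 6.83 and 8.55 CPM in KO, against 0.63 and 0 CPM in WT, at or below 1 read in WT. Polycomb and NuRD genes had 1 of 28 higher (3.57%) and 7 lower (25%), of which 6 lie on chromosomes 6, 8 and 11, Ezh2 and Suz12 among them. This list had 2 higher and 1 lower after the chromosome medians were subtracted. Splicing factors had none of 42 higher and 8 lower (19.0%), and 3 lower after TMM scaling. Selenoproteins, which recode a stop codon as selenocysteine, had 4 of 17 higher (23.5%) and 1 lower (5.88%). Dio3, a deiodinase, stood at 57.9 and 70.3 CPM in KO, against 10.7 and 7.22 CPM in WT (log2 change 2.72 ± 0.28).

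**Figure D4:**
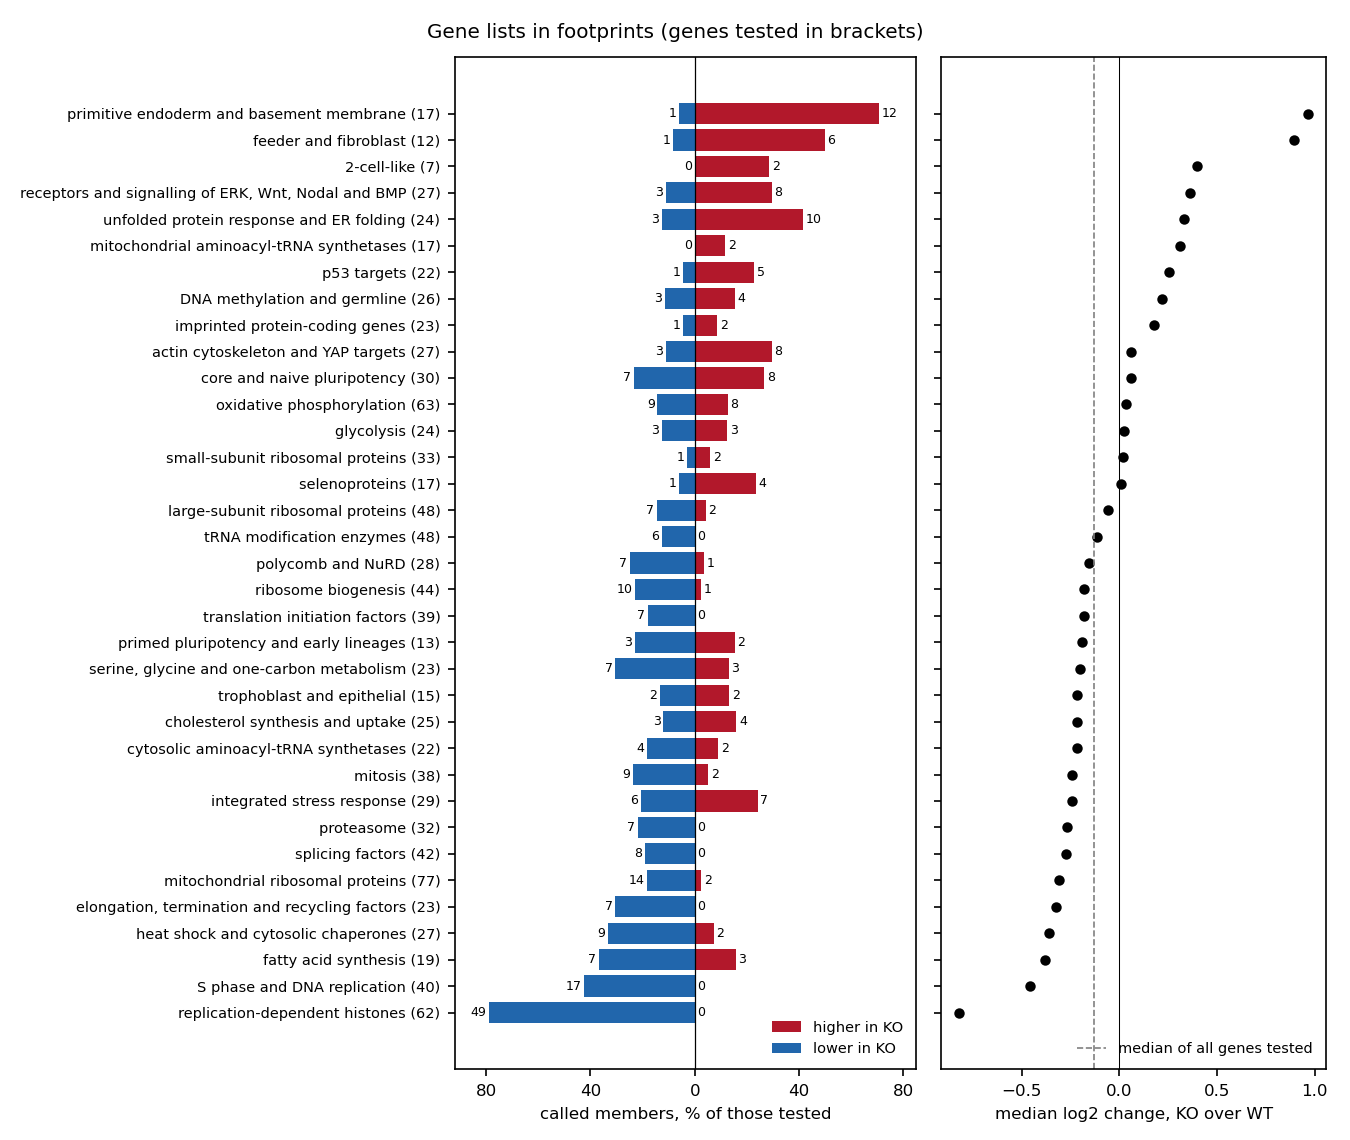
For each gene list (number of genes tested in brackets), the left panel gives the percent of tested members called higher (red, to the right) or lower (blue, to the left) in KO, with the number of genes at the bar end, and the right panel the median log2 change with the median of all genes dashed. Lists run by median, from replication-dependent histones (49 of 62 lower, median -0.82) to primitive endoderm and basement membrane (12 of 17 higher, median 0.97).

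The called genes with the highest mean CPM, which is not corrected for gene length, show how small a change could be called. Among those higher in KO, Igfbp2, which binds insulin-like growth factors, had 3478 and 4014 CPM in KO cells, against 2407 and 1879 CPM in WT cells (log2 change 0.81 ± 0.143). Spp1, the secreted phosphoprotein osteopontin, had 2523 and 2729 CPM in KO cells, against 1534 and 1336 CPM in WT cells (log2 change 0.87 ± 0.134), and Tubb5, a beta-tubulin, had 3671 and 3039 CPM in KO cells, against 2480.4 and 2570.3 CPM in WT cells (log2 change 0.40 ± 0.138), a call that 4 of the other settings besides a left-out library did not keep. On chromosome 11, where the median change was -0.55, the most abundant lower genes included, besides Actg1 and Npm1 above, Ppia (cyclophilin A), with 2464 and 2171 CPM in KO, against 4466 and 3852 CPM in WT, Ubb (ubiquitin), with 2787 and 2525 CPM in KO, against 3718 and 3332 CPM in WT, Gnb2l1 (the ribosomal scaffold RACK1), with 1779.7 and 1779 CPM in KO, against 2574 and 2627 CPM in WT, and Eif4a1 (an initiation helicase), with 1985 and 1685 CPM in KO, against 2302 and 2711 CPM in WT. After the chromosome medians were subtracted, none of these 6 was called, and the log2 changes of Ubb, Gnb2l1 and Eif4a1 were 0.14, 0.0025 and 0.10. Ptma (prothymosin alpha, chromosome 1), with 2535 and 2378 CPM in KO, against 3722 and 3123 CPM in WT (log2 change -0.47 ± 0.137), and the histone gene Hist2h2aa2 (chromosome 3), with 1729 and 1488 CPM in KO, against 2447 and 2374 CPM in WT (log2 change -0.59 ± 0.134), were lower on other chromosomes. Ptma was not called with CPM as deposited or after TMM scaling.

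Among the highest rows of the footprint table were a mitochondrial synthetase gene and several noncoding RNAs. Lars2, the mitochondrial leucyl-tRNA synthetase, had the highest mean CPM of the protein-coding genes called higher, with 13784 and 19348 CPM in KO cells, against 2328 and 3066 CPM in WT cells (log2 change 2.61 ± 0.161, adjusted p = 7.62e-13). Its total RNA was uneven within both genotypes, with 2653 and 684 CPM in KO, against 1102 and 7062 CPM in WT (adjusted p = 0.206). Of the other 16 mitochondrial synthetases, 1 was called, Yars2, with 58.6 and 57.9 CPM in KO, against 35.9 and 28.9 CPM in WT. The microRNA row Mir6240 had 7777 and 8476 CPM in KO cells, against 345 and 584 CPM in WT cells, a log2 change of 4.17 ± 0.164, and was listed at 0 in all total RNA libraries. The mature miRNA of that row is shown because it lies within the size range of the footprint cut, with its seed (bases 2 to 8) in capitals, as RefSeq gives it at chr5:114851973-114851998 on the plus strand (GRCm38.p6).
mmu-miR-6240: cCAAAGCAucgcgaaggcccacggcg
It has 26 bases, and the hairpin shares 0 of its 93 words of 25 bases with the 9 Lars2 transcripts. The hairpin was not compared with Rn45s or any other gene. Whether the reads of this row come from the microRNA or from another RNA was therefore not tested.

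Structured RNA components of RNA-processing enzymes and a ribosomal RNA row behaved alike in direction. Rmrp, the RNA of RNase MRP, had 3691 and 3851 CPM in KO cells, against 850.3 and 1746 CPM in WT cells (log2 change 1.63 ± 0.187), and Rpph1, the RNA of RNase P, had 524 and 1249.7 CPM in KO cells, against 223 and 244 CPM in WT cells (log2 change 1.79 ± 0.21). Gm25018, annotated as a ribosomal RNA, had 14234 and 16258 CPM in KO cells, against 8229 and 9029 CPM in WT cells (log2 change 0.82 ± 0.148). In total RNA, Rmrp was also higher (log2 change 0.68) and Rpph1 was lower (-0.59, adjusted p = 1.83e-05). Protein-coding genes took 96.4% and 95.9% of the footprint level outside Rn45s in KO and 98.1% and 97.8% in WT.

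Most genes called in footprints had a total RNA change of the same sign. Over 11885 genes tested in both kinds of library, Spearman's rho between the log2 changes was 0.561, and it was 0.742 over the 3490 genes at 50 CPM or more, a description across genes that are not independent replicates. Of 1130 genes higher in footprints, 1052 had a total RNA change of the same sign, and 530 (46.9% of them, and 59.4% of the 892 genes higher in total RNA) were called higher in both. Among 1445 genes lower in footprints, 1316 had the same sign, and 560 (38.8% of them, and 54.8% of the 1022 lower in total RNA) were called lower in both. Opposite calls were found for 2 higher and 3 lower genes. Total RNA had 1969 of 13302 genes called (14.8%).

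A direct test of whether footprints changed by a different amount than total RNA (the genotype-by-readout interaction) called 12 of 11885 genes (0.101%), 5 in the direction of more and 7 of fewer footprints than the RNA change, while 1142 were below 0.05 before adjustment. Of the 7, 5 named genes had higher total RNA in KO without higher footprints. Srrm2, a serine- and arginine-rich splicing protein, had 575 and 583 CPM in KO cells, against 641 and 624 CPM in WT cells in footprints (log2 change -0.13 ± 0.132, adjusted p = 0.537). Its total RNA had 1426 and 1058 CPM in KO, against 511 and 522 CPM in WT (log2 change 1.25), and the interaction was -1.38 ± 0.186 (adjusted p = 0.000477). Pabpc1, the cytoplasmic poly(A)-binding protein, had 1053 and 1108 CPM in KO cells, against 1298 and 1123 CPM in WT cells in footprints and a total RNA log2 change of 0.93, an interaction of -1.09 ± 0.19 (adjusted p = 0.0125).

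Chd4, the remodelling ATPase of NuRD on chromosome 6, fell in footprints, with 410.0 and 412 CPM in KO cells, against 598 and 581 CPM in WT cells (log2 change -0.52 ± 0.133), and was higher in total RNA, with 985 and 1009 CPM in KO, against 702 and 642 CPM in WT (interaction -1.09 ± 0.167, adjusted p = 0.00294). Zfp277, a zinc finger protein gene, and Smad7, an inhibitor of TGF-beta signalling, had footprint log2 changes of -0.20 and -0.12, total RNA changes of 1.24 and 1.10, and interactions of -1.45 ± 0.267 and -1.22 ± 0.241 (adjusted p = 0.0247 and 0.0382). Snrnp70, a component of the U1 splicing particle, had footprint and RNA changes of -0.83 and 0.15 (interaction adjusted p = 0.0382). The other 3 rows called are predicted genes or clones. In the other direction, the named genes were Rpph1, Lars2 and Mettl6, with interactions of 2.39 ± 0.299, 3.66 ± 0.705 and 3.89 ± 0.757 (adjusted p = 0.000251, 0.0381 and 0.0381). Next in order came Rps15a, with an interaction of 0.94 ± 0.205, and Eno1b, a near-copy of the glycolytic gene Eno1, with 1.29 ± 0.283, neither past the threshold (adjusted p = 0.0816 for both). The count of 12 became 47 without the second KO total RNA library, 33 without the second WT footprint library, 5 without the second KO footprint library and 3 without the second WT total RNA library.

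**Figure D5:**
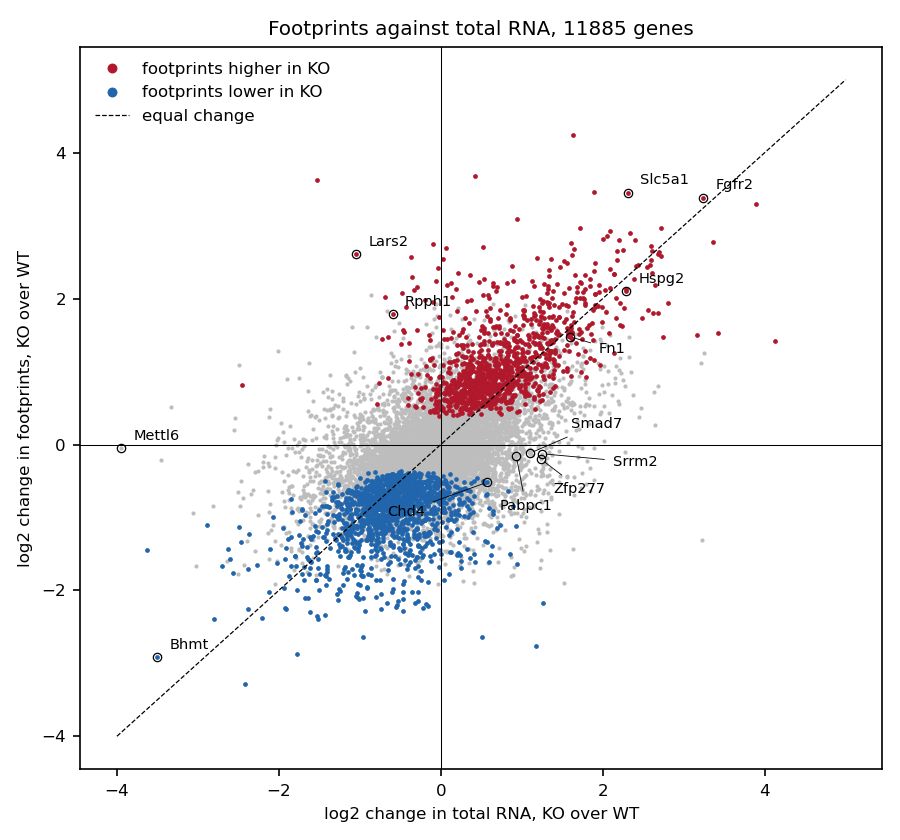
Log2 change in footprints against log2 change in total RNA, both KO over WT, for 11885 genes, with genes called higher in footprints red, lower blue and not called grey. The dashed line marks equal change, and most called genes have the same sign in both (1052 of 1130 higher and 1316 of 1445 lower). Srrm2, Pabpc1, Zfp277 and Smad7 lie near 0 for footprints and to the right for RNA, and Lars2, Rpph1 and Mettl6 lie above the line.

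Across amino acids and single codons, Spearman's rho between their share in a gene and its footprint change was at most 0.162 in size. Over 11792 genes with a coding sequence of at least 100 codons, Spearman's rho between the share of serine codons and the log2 change was -0.0285, which ranked 17 of 20 amino acids by size, and that with the total RNA change was 0.0814. Single serine codons gave rho from -0.0272 (AGC) to 0.0245 (TCC). The largest values were -0.162 for glutamate and 0.160 for phenylalanine. In 5 equal groups of genes by rising serine share, the median log2 change was -0.15, -0.10, -0.11, -0.12 and -0.20. The share of genes called lower was 15%, 11.6%, 10.8%, 9.50% and 12.5%. The share called higher was 9.45%, 11.3%, 10.6%, 9.29% and 6.19%, lowest in the group richest in serine. By rising coding length, the medians were -0.22, -0.17, -0.11, -0.12 and -0.07. These are descriptions across genes, which share libraries and differ together in length, level and base composition.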

How the data were processed

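The submitters' processing notes name CASAVA 1.8.2, Bowtie2, RSEM and the build mm10, with no settings and no version of Bowtie2 or RSEM. The authors deposited CPM per gene symbol for 8 libraries, with footprint columns named as RSEM gene tables per the file headers, and with no other column of values. The smallest step of each footprint library gave whole reads, within 0.01 read, for 67.7% to 74.3% of values, so counts could not be recovered and no count test was used. Whether the counting used strand, or how it shared reads among near-identical genes, is not stated in the labels.

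The deposited CPM were rescaled to 1000000 after dropping Rn45s and taken to log2(CPM + 1). Genes averaging 1 CPM or more in the 4 footprint libraries entered limma-trend (limma 3.58.1, R 4.3.3), fitted on the 2 KO and 2 WT footprint libraries with 2 residual degrees of freedom, two-sided, with Benjamini-Hochberg adjustment over 12385 genes and a threshold of 0.05. With 2 libraries a group, an exact permutation test cannot reach that threshold, and these p-values borrow the spread of other genes. A log2 change is KO minus WT of mean log2(CPM + 1), which understates changes of low genes, with limma's SE. Folds are ratios of mean CPM. The interaction fit used all 8 libraries. Python 3.11.15 with pandas 2.3.3 was used for the summaries, and the test was tried on simulated data.

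The members and the 36 gene lists were chosen with earlier results of these data known, so lists are described by counts and medians, without a test. Named genes are Mettl6, the 15 largest increases and decreases and the 10 called genes of each direction with the highest mean CPM (protein-coding, called, at least 5 CPM, libraries not overlapping, no predicted genes), the 4 smallest p of each list, 13 fixed names and the 5 genes of each sign with the smallest interaction p. Other list members named as examples were chosen after their values were seen. Chromosomes, coordinates and gene classes come from RefSeq (GRCm38.p6, 22527 symbols matched directly and 1175 by synonym), and coding sequences from GENCODE vM21. Proteins are not shown.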

Additional observations from a re-analysis of the deposited data

How the results depend on the processing

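Over 21 settings besides the one reported, 5 of the 193 named genes changed direction after having been called, all under 1 setting. Named genes that were not called and changed sign under some setting were Mettl6, Mettl8, Pou5f1, Sox2, Myc, Eif1a, Zfp277, Smad7 and Gm4340. After each chromosome's median was subtracted, Ubb, Npm1, Gnb2l1, Eif4a1 and Trp53, all on chromosome 11, had log2 changes of 0.14, 0.069, 0.0025, 0.10 and 0.13, by construction of that setting, and 47 other named genes lost their call. Leaving out 1 library gave 39 to 671 calls in the footprint fit (34 to 447 higher, 5 to 241 lower), which then has 1 residual degree of freedom and assumes that a library alone in its group varies like the others. Unadjusted p was below 0.05 for 2670 to 3213 genes there. With the total RNA libraries in the fit, leaving out the first or second KO or the first or second WT footprint library gave, in that order, 1266, 804, 1297 and 1212 calls, of which 619, 399, 721 and 636 were higher and 647, 405, 576 and 576 lower. Lower calls numbered 959 with CPM as deposited, 959 after TMM scaling, 575 without chromosome medians and 591 (1584 calls in all) without chromosomes 6, 8 and 11, where fewer genes were tested. The interaction calls numbered 7 with CPM as deposited, 4 with a pseudocount of 0.1 and 3 to 47 with 1 library left out.

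Replicate numbers are shared by KO and WT in the labels but did not pair the footprint libraries: deviations of same-numbered KO and WT footprint libraries correlated at -0.0352 over 8265 genes. With the replicate block, 2577 genes were called (1150 higher, 1427 lower) in footprints and 51 in the interaction. Among named genes, Tubb5, Ubb and Ncl lost their call under the block (adjusted p = 0.0624, 0.0602 and 0.055) and Klf4 and Atf4 gained one (0.0472 and 0.0389).

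Depth limits low genes: of 2542 genes below 5 CPM, 143 were called, and a gene near 1 CPM rests on a few reads in all.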
